A study of Mus musculus with 3 samples.

Results

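Vsig4-positive resident macrophages were the cells of mouse knee synovium and fat pad that carried RNA of both the complement component C1q and the complement receptor Vsig4. A cell barcode with at least 500 detected genes and at most 10% mitochondrial unique molecular identifiers (UMIs, each marking 1 captured RNA molecule) was gated as a macrophage on 3 criteria. It had at least 10 UMIs of C1qa, C1qb and C1qc together, less than 0.2% of its UMIs from the collagen-tissue genes Col1a2, Col3a1 and Dcn, and no UMI of the endothelial gene Cdh5. Among these, a resident macrophage had at least 2 UMIs of Vsig4 and fewer than 10 UMIs of Spp1, the gene of osteopontin. The criteria left 644 resident macrophages of 3285 gated macrophages and 30197 passing cells, namely 445 in the control library, 27 at 1 week and 172 at 2 months. Because the cells were chosen by their measured Vsig4, Spp1 and C1q UMIs, levels of those genes are given below as a description only.

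The study profiled wild-type mouse knees with droplet-based single-cell RNA sequencing (10x Genomics, 3′ chemistry), with 1 library per group. The groups were control mice of 2 months of age, and mice taken 1 week or 2 months after destabilisation of the medial meniscus (DMM), a knee operation done at 2 months of age and used as a model of osteoarthritis. Each library pooled synovium and infrapatellar fat pad of 5 to 10 mice, taken from a second digestion with collagenase I after a first one with trypsin, and sorted for live cells. The mice taken at 2 months were therefore older than the control mice, so that age and time since surgery cannot be told apart, and a sham operation and the sex of the mice are not given in the sources used here. With 1 pool per group there was no replicate, no test was possible, and each interval below is a 95% interval for counting error alone.

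Macrophages of the joint lining and of the tissue beneath it are maintained largely without input from blood, clear dying cells and debris, and keep the joint free of inflammation. The receptor encoded by Vsig4, also called CRIg, binds the C3b and iC3b fragments that complement leaves on particles and mediates their uptake. Macrophages that carry Vsig4 together with the hyaluronan receptor Lyve1 and the folate receptor Folr2 lie along vessels and surfaces in many mouse tissues, whereas blood monocytes that enter an inflamed joint typically carry Ccr2 and MHC class II genes.

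The 5 markers of these cells are all encoded on the minus strand of the mouse genome (GRCm38, GENCODE vM21). Vsig4 (ENSMUSG00000044206) lies at chrX:96247203-96293438, Lyve1 (ENSMUSG00000030787) at chr7:110850607-110863239 and Folr2 (ENSMUSG00000032725), the folate receptor beta, at chr7:101839988-101857194. Cbr2 (ENSMUSG00000025150), a carbonyl reductase, lies at chr11:120729489-120732114, and Ltc4s (ENSMUSG00000020377), the leukotriene C4 synthase, at chr11:50236461-50238616. Of these 5 genes, 4 had a start site in the RefSeq promoter table (GRCm38.p6), with 5 promoters of 250 bases before and 50 bases after the start, and Lyve1 was not in it. The promoters of the 3 markers in which the letters GAGGAA were found on either strand are shown, because GAGGAA is a core recognised by PU.1, the macrophage transcription factor encoded by Spi1, and because these 3 genes were detected in the same cells. Each runs 5′ to 3′ on the minus strand, and capitals mark GAGGAA or, on the other strand, TTCCTC.
Vsig4, chrX:96293389-96293688: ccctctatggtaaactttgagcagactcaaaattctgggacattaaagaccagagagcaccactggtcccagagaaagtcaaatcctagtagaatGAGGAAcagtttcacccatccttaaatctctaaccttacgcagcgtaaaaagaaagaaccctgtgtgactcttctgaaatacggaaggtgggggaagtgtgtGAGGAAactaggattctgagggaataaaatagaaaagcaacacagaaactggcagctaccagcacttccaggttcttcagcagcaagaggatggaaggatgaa
Cbr2, chr11:120731972-120732271: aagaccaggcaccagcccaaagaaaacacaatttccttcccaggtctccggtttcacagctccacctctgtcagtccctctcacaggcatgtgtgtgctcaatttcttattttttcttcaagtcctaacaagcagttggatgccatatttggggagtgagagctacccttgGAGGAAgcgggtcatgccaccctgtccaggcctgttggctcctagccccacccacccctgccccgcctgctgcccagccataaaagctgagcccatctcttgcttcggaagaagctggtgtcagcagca
Ltc4s, chr11:50238483-50238782: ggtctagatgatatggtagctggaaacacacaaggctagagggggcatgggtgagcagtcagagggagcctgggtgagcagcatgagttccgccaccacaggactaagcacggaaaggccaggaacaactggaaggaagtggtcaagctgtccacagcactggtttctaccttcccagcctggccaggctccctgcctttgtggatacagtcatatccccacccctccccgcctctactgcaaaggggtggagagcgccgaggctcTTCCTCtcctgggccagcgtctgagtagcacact
The Vsig4 promoter held GAGGAA at 2 places, which began 155 and 53 bases before the start, and the Cbr2 promoter held it at 1 place, 79 bases before the start. In the Ltc4s promoter it lay after the start. Neither of the 2 Folr2 promoters held it. Over all 32851 RefSeq promoters of this length, 28.3% held GAGGAA on either strand, so that a match in 3 of 5 is a description of these letters and says nothing of binding. The letters TGCTGA, a half-site of MAF-family factors, were found once in the promoters of Vsig4 and Cbr2 and in both of Folr2, against 19.5% of all promoters, and none of these overlapped a GAGGAA.

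The label was first checked against the 4 markers that the selection did not use. Cells were thinned to 5000 UMIs each so that depth was equal, which left out 47 control, no 1-week and 7 2-month residents with fewer UMIs. Among residents, Lyve1 was detected in 98.2% in control, 66.7% at 1 week and 83.6% at 2 months, and without thinning in 98.2% in control, 70.4% at 1 week and 86.6% at 2 months. Folr2 was found in 99.2% in control, 96.3% at 1 week and 97.0% at 2 months. Cbr2 was found in 95.2% in control, 85.2% at 1 week and 92.1% at 2 months. Among these shares, that of Lyve1 at 1 week was the lowest. Ltc4s was found in 90.2% in control, 77.8% at 1 week and 83.0% at 2 months. Cells of a mesenchymal gate (at least 1% of UMIs from Col1a2, Col3a1 and Dcn), which should lack these genes, had median depths of 12335 UMIs in control, 16029 at 1 week and 13995.5 at 2 months. At 5000 UMIs Lyve1 was detected in these cells in 2.65% in control, 0.399% at 1 week and 1.29% at 2 months. Each of the 4 markers was thus detected in a majority of residents of every library, far above the share in mesenchymal cells, which for Cbr2 was 2.69% in control, 2.25% at 1 week and 1.56% at 2 months. Gated macrophages with 0 Vsig4 UMIs and fewer than 10 of Spp1 also carried them in control. There Lyve1 was detected in 91.2%, Folr2 in 94.5%, Cbr2 in 87.5% and Ltc4s in 73.6%. In the same order the shares were 2.24%, 42.9%, 26.2% and 14.6% at 1 week, and 59.65%, 80.9%, 80.7% and 62.5% at 2 months. The check thus set residents apart from mesenchymal cells, and not from other control macrophages.

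As summed levels, the markers separated into those near the control level and Lyve1. Levels are UMIs of a gene per 1000000 UMIs (CPM) summed over the resident cells of a library. Vsig4, on which the cells were chosen, stood at 2503 CPM in control, 2683 CPM at 1 week and 2358 CPM at 2 months. Folr2 stood at 1327 CPM in control, 1284 CPM at 1 week and 1170.0 CPM at 2 months. Cbr2 stood at 1180.0 CPM in control, 1193 CPM at 1 week and 896 CPM at 2 months. Both were within 2-fold of control in the operated libraries. Lyve1 stood at 2357 CPM in control, 625 CPM at 1 week and 1571 CPM at 2 months, which was 3.77-fold lower (95% interval 3.28 to 4.35) at 1 week than in control and 1.501-fold (1.45 to 1.56) lower at 2 months. For Ltc4s the levels were 816 CPM in control, 464 CPM at 1 week and 604 CPM at 2 months, between the control-like markers and Lyve1 in their distance from control. Per cell, Vsig4 had a median of 22 UMIs in control, 29 at 1 week and 22 at 2 months, with a maximum of 98 in control, 108 at 1 week and 128 at 2 months.

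Most residents lay well above the Vsig4 criterion. At least 10 Vsig4 UMIs were found in 324 of 445 control residents (72.8%), 22 of 27 at 1 week (81.5%) and 120 of 172 at 2 months (69.8%). Cells with at least 10 had 2584 CPM of Lyve1 in control and 1775 CPM at 2 months. Cells just inside, with 2 or 3 Vsig4 UMIs, had 1585 CPM of Lyve1 in control and 990.0 CPM at 2 months. Cells just outside, with 1 Vsig4 UMI, numbered 58 in control and 22 at 2 months, and had 1235.0 CPM of Lyve1 in control and 918 CPM at 2 months. The cells near the criterion were also shallower in control, with a median of 7149 UMIs just inside and 6834 UMIs just outside, against 10290.0 UMIs for cells with at least 10 Vsig4 UMIs. At 1 week, 1 cell lay just inside and 6 just outside.

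**Figure D1:**
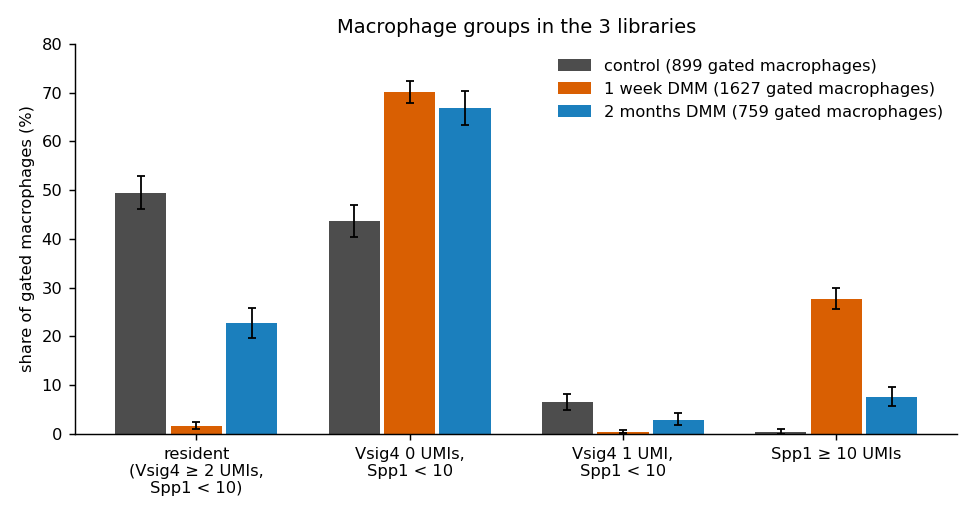
Share of gated macrophages (%, vertical axis) that were Vsig4-positive residents, had 0 or 1 Vsig4 UMI, or had at least 10 Spp1 UMIs, for the control, 1-week and 2-month libraries (bars, with 95% Clopper-Pearson intervals for counting error). Residents were 49.5% of gated macrophages in control, 1.66% at 1 week and 22.7% at 2 months, and Vsig4-negative macrophages were 43.7% in control, 70.3% at 1 week and 66.9% at 2 months.

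Residents made up 49.5% of gated macrophages in control (445 of 899, Clopper-Pearson interval 46.2 to 52.8%), 1.66% at 1 week (27 of 1627, 1.10 to 2.41%) and 22.7% at 2 months (172 of 759, 19.7 to 25.8%). The 1-week share was 29.8-fold lower than the control share (interval 20.2 to 45.8) and the 2-month share was 2.18-fold lower (1.83 to 2.62). The 2-month share was 13.7-fold higher than the 1-week share (9.07 to 21.3). Of all passing cells, residents were 5.50% in control, 0.219% at 1 week and 1.76% at 2 months, 25.1-fold lower than control at 1 week and 3.13-fold lower at 2 months. These shares are a description, since the selection used Vsig4, and fewer such cells cannot be told apart from cells of the same kind that no longer carried Vsig4 RNA. Gated macrophages of all kinds were 11.1% of passing cells in control, 13.2% at 1 week and 7.76% at 2 months.

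The low number of residents at 1 week was present before the other criteria were applied. At least 2 Vsig4 UMIs were found in 531 of all passing cells in control, 38 at 1 week and 212 at 2 months, whether or not the cells were macrophages. Of the cells with at least 10 C1q UMIs and at least 2 Vsig4 UMIs, 515 in control, 38 at 1 week and 208 at 2 months, the collagen criterion removed 45 in control, 3 at 1 week and 21 at 2 months. The Cdh5 criterion removed 25 of these cells in control, 5 at 1 week and 7 at 2 months, and the Spp1 criterion removed none in control, 3 at 1 week and 8 at 2 months. Spp1 was at 0 in 433 control residents (97.3%), in 10 at 1 week (37.0%) and in 114 at 2 months (66.3%). The cells that met the C1q and Vsig4 criteria but failed the filter on genes and mitochondrial UMIs numbered 3 in control, 5 at 1 week and 2 at 2 months. Of the passing cells that met the C1q and Vsig4 criteria, the other criteria together kept 86.4% in control, 71.05% at 1 week and 82.7% at 2 months.

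A count of marker genes that did not use Vsig4 gave the same order of libraries. All of Lyve1, Cbr2, Ltc4s and Folr2 were detected at 5000 UMIs in 571 of 772 control gated macrophages (74.0%), in 34 of 1553 at 1 week (2.19%) and in 342 of 700 at 2 months (48.9%). Without thinning the shares were 79.4% in control, 2.58% at 1 week and 59.2% at 2 months. The 1-week share was 33.8-fold lower than control (interval 23.9 to 49.3), and the 2-month share 1.51-fold lower (1.32 to 1.74). At least 3 of the 4 were detected in 93.5% of gated macrophages in control, 8.44% at 1 week and 71.4% at 2 months, and none of them in 12 cells in control, 650 at 1 week and 57 at 2 months. In the mesenchymal gate, where the limit for a count of 0 is set at 3 cells of the total, all 4 were found in 0 of 2979 cells in control, which allows a share of up to 0.101%, in 0 of 5771 at 1 week (up to 0.0520%) and in 0 of 4486 at 2 months (up to 0.0669%). Among the residents themselves all 4 were detected in 84.4% in control, 55.6% at 1 week and 70.9% at 2 months.

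**Figure D2:**
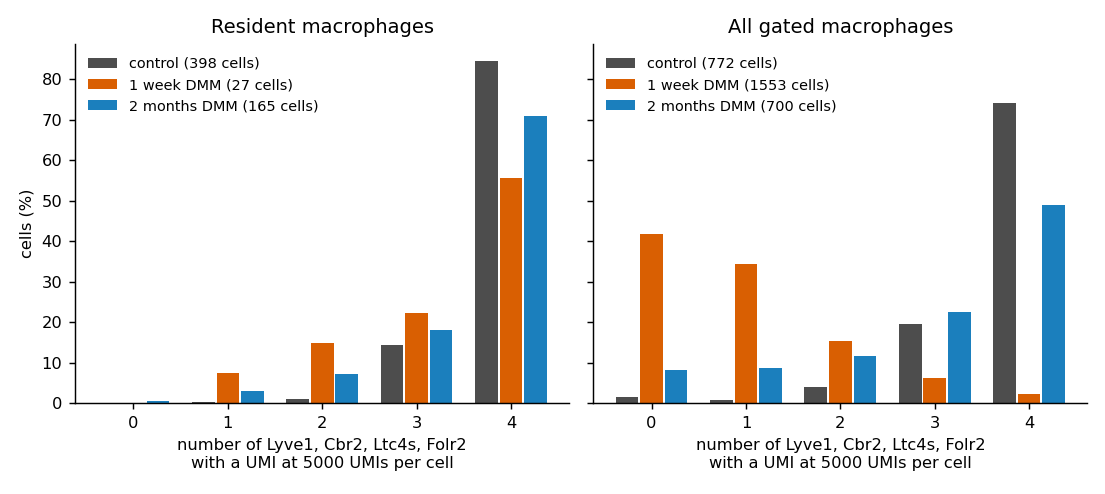
Share of cells (%, vertical axis) in which 0 to 4 of the markers Lyve1, Cbr2, Ltc4s and Folr2 were detected after thinning to 5000 UMIs, for residents (left) and all gated macrophages (right) of the 3 libraries. Among gated macrophages, all 4 were detected in 74.0% in control, 2.19% at 1 week and 48.9% at 2 months.

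The marker count also showed where the Vsig4 criterion and the other markers parted. Vsig4-negative macrophages (0 Vsig4 UMIs, fewer than 10 of Spp1) held all 4 markers in 65.1% of cells in control, in 1.59% at 1 week and in 44.5% at 2 months. Control and 2-month Vsig4-negative macrophages therefore included many cells with the markers of residents, whereas at 1 week they did not. Spp1-high macrophages held all 4 in 2 of 449 cells at 1 week (0.445%) and in 13 of 57 at 2 months (22.8%). The Lyve1 level of Vsig4-negative cells was 1788 CPM in control, 21.1 CPM at 1 week and 882 CPM at 2 months, and their Folr2 level was 1212 CPM in control, 244 CPM at 1 week and 797 CPM at 2 months.

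Facts of the libraries bear on every comparison of residents. The median resident had 9830.0 UMIs in control, 11430.0 at 1 week and 11784 at 2 months, and the sums over residents were 4511781 UMIs in control, 329442 at 1 week and 2240683 at 2 months. In these sums 1 UMI was worth 0.222 CPM in control, 3.04 CPM at 1 week and 0.446 CPM at 2 months. The median share of mitochondrial UMIs was 1.82% in control residents, 4.43% at 1 week and 4.17% at 2 months, and over all passing cells it was 1.79% in control, 3.52% at 1 week and 3.41% at 2 months. Between 28 and 33 barcodes were shared by any 2 libraries, none of them a resident. The 2-month library held 638 passing cells with Xist and no Y-linked UMI, against 3 at 1 week and 4 in control, and among residents there were 23 such cells at 2 months and none in the other libraries. The files of the 2-month library were also written by another release of Cell Ranger than those of the other libraries. Restricted to cells with a Y-linked UMI and no Xist, the resident share of gated macrophages was 0.0384 of control at 1 week and 0.382 of control at 2 months. The part of mitochondrial RNA, of sex and of the software release in the gene results below was not tested.

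RNA of other cell types was present in residents and differed between libraries. The 5 fibroblast markers summed to 4576 CPM in control, 577 CPM at 1 week and 769 CPM at 2 months, almost all of it in control from Prg4, the lubricin gene of the joint lining, at 4488 CPM in control, 143 CPM at 1 week and 644 CPM at 2 months. Prg4 in control came in part from 1 cell, which held 38.1% of its UMIs. Col1a1, a collagen gene, was higher than control at 1 week, at 46.3 CPM in control, 313 CPM at 1 week and 56.2 CPM at 2 months. The 7 neutrophil markers summed to 83.8 CPM in control, 88.0 CPM at 1 week and 3585 CPM at 2 months. S100a9, a calcium-binding protein of neutrophils, stood at 29.9 CPM in control, 45.5 CPM at 1 week and 1695 CPM at 2 months. Most of its 2-month UMIs lay in few cells, as 1 resident held 47.0% of them. It was still found in 107 of 445 residents in control, 12 of 27 at 1 week and 134 of 172 at 2 months. Over all passing cells the neutrophil markers summed to 1458 CPM in control, 3794 CPM at 1 week and 13563 CPM at 2 months. Leaving out residents with at least 10 UMIs of other cell types kept 422 in control, 18 at 1 week and 115 at 2 months. The 5 mural markers summed to 743 CPM in control, 170.0 CPM at 1 week and 615 CPM at 2 months, led by Acta2, the smooth muscle actin. Markers of T and NK cells were at 0 in all but 1 UMI, and those of adipocytes, mast cells and muscle were at or near 0 in every library.

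Set beside Vsig4-negative macrophages, residents were low in MHC class II genes in all 3 libraries. This comparison follows the selection and has no test, and a gene counted only when its ratio was at least 2-fold in the same direction in each library. Of 9998 genes measured, 22 were higher in residents (0.22%) and 43 lower (0.43%). The 4 genes with the lowest ratios over Vsig4-negative cells all encode the class II antigen-presenting complex, the chains H2-Eb1, H2-Aa and H2-Ab1 and the invariant chain Cd74. Cd74 stood at 449 CPM in control, 30.4 CPM at 1 week and 265 CPM at 2 months in residents, against 3257 CPM in control, 5871 CPM at 1 week and 4107 CPM at 2 months in Vsig4-negative macrophages, with ratios of 0.138 in control, 0.00517 at 1 week and 0.0645 at 2 months. For H2-Ab1 the levels were 101 CPM in control, 21.2 CPM at 1 week and 99.5 CPM at 2 months in residents, against 762 CPM in control, 2218 CPM at 1 week and 1545 CPM at 2 months in Vsig4-negative cells. That residents lay below Vsig4-negative cells in each library for both genes follows from how the genes were chosen. They lay furthest below at 1 week. The other genes among the 12 lowest were Tnip3, Il7r, Plbd1, Mefv, Rab11fip1, Emb, Runx3 and H2-DMb1. Il7r, the interleukin-7 receptor alpha chain, stood at 0.222 CPM in control, 3.04 CPM at 1 week and 1.78 CPM at 2 months in residents, against 4.12 CPM in control, 76.0 CPM at 1 week and 15.2 CPM at 2 months in Vsig4-negative cells. These resident levels came from 1 UMI in control, 1 at 1 week and 4 at 2 months, and sums under 3 UMIs were raised to 3 for the ratio. Tnip3, Plbd1, Mefv, Rab11fip1 and Runx3 also had fewer than 3 UMIs in residents at 1 week.

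The genes highest in residents over Vsig4-negative cells were of several kinds. Fgf2, a fibroblast growth factor, stood at 10.4 CPM in control, 6.07 CPM at 1 week and 21.9 CPM at 2 months in residents, against 3.29 CPM in control, 0.633 CPM at 1 week and 6.65 CPM at 2 months in Vsig4-negative cells. Its 1-week level in residents came from 2 UMIs in 2 cells, and this sum was raised to 3 UMIs for the ratio. S100b, a calcium-binding protein, had 129 CPM in control, 143 CPM at 1 week and 189 CPM at 2 months in residents, against 36.8 CPM in control, 3.62 CPM at 1 week and 69.7 CPM at 2 months in Vsig4-negative cells. The matrix proteoglycan gene Vcan had 207 CPM in control, 124 CPM at 1 week and 257 CPM at 2 months in residents, against 92.5 CPM in control, 16.0 CPM at 1 week and 131 CPM at 2 months in Vsig4-negative cells. The remaining genes by this measure were Amotl1, Chst1, Tcim, Sox4, Ccn1, Adarb1, Etl4, Cxxc5 and Ecscr. Sox4, a transcription factor, had 54.8 CPM in control, 24.3 CPM at 1 week and 36.6 CPM at 2 months in residents, against 23.9 CPM in control, 10.0 CPM at 1 week and 15.8 CPM at 2 months in Vsig4-negative cells. That residents lay above Vsig4-negative cells in all 3 libraries follows from how these genes were chosen, by their smallest ratio over the libraries.

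**Figure D3:**
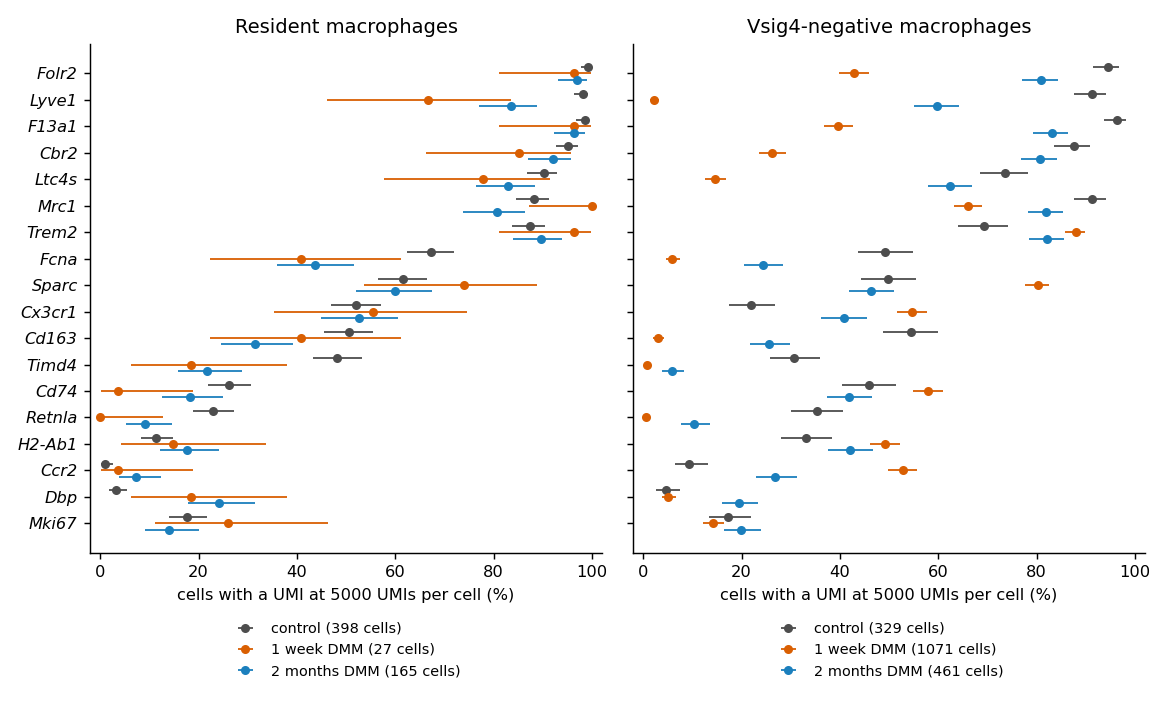
Share of cells (%, horizontal axis) with at least 1 UMI of each of 18 genes after thinning to 5000 UMIs, for residents (left) and Vsig4-negative macrophages (right) of the 3 libraries, with 95% Clopper-Pearson bars. H2-Ab1 was detected in 11.3% of control residents, 14.8% at 1 week and 17.6% at 2 months, against 33.1% of Vsig4-negative macrophages in control, 49.1% at 1 week and 42.1% at 2 months.

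Within residents the markers of subsets overlapped. Timd4, a phosphatidylserine receptor of long-lived resident macrophages, was detected at 5000 UMIs in 48.2% in control, 18.5% at 1 week and 21.8% at 2 months, and without thinning in 64.0% in control, 37.0% at 1 week and 33.1% at 2 months. In mesenchymal cells it was detected in 0.101% in control, 0.0173% at 1 week and 0.0446% at 2 months. Its level was 132 CPM in control, 60.7 CPM at 1 week and 64.7 CPM at 2 months, which was 2.17-fold lower (95% interval 1.39 to 3.58) at 1 week and 2.04-fold (1.70 to 2.46) lower at 2 months. Both operated libraries thus lay below control in Timd4. Cx3cr1, the fractalkine receptor that in mouse joints marks the macrophages of the lining, was detected among residents in 52.0% in control, 55.6% at 1 week and 52.7% at 2 months, against mesenchymal shares of 0.269% in control, 0.589% at 1 week and 0.268% at 2 months. Unlike those of Timd4, its detection shares had overlapping intervals in all 3 libraries. Its level was 232 CPM in control, 270.2 CPM at 1 week and 290.5 CPM at 2 months, and so was highest at 2 months. Timd4 and Cx3cr1 did not divide the control residents, as Timd4 was detected in 48.3% of those with Cx3cr1 and in 48.2% of those without it. At 2 months Timd4 was detected in 20.7% of residents with Cx3cr1 and in 23.1% of those without it.

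Few residents had no Lyve1 UMI. At 5000 UMIs they were 7 of 398 in control, 9 of 27 at 1 week and 27 of 165 at 2 months. At 2 months Cx3cr1 was detected in 19 of the 27 without Lyve1 and in 68 of the 138 with it. Timd4 was detected in 1 of the 27 and in 35 of the 138, and Retnla in 1 of the 27 and in 14 of the 138. H2-Ab1 was detected in 8 of the 27 and in 21 of the 138, and Sparc in 11 of the 27 and in 88 of the 138. These counts are a description of 1 library, and no difference between these cells was tested. The numbers without Lyve1 in the other libraries were too small to compare.

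Other genes listed for the resident programme lay on both sides of control after surgery. Of the 17 genes listed for resident-type macrophages, 14 had enough UMIs for the 1-week comparison (at least 100 in both sums together) and 15 for the 2-month comparison. At 1 week 1 was at least 2-fold higher and 4 at least 2-fold lower, with a median log2 ratio of -0.40, and at 2 months 2 were higher and 3 lower, with a median of -0.41. Over all genes measured 3.12% were higher and 8.54% lower at 1 week, with a median of -0.05, and 1.76% were higher and 2.83% lower at 2 months, with a median of -0.01. Fcna, the lectin ficolin A, stood at 296 CPM in control, 121 CPM at 1 week and 133 CPM at 2 months, 2.44-fold lower (95% interval 1.78 to 3.43) at 1 week and 2.22-fold (1.96 to 2.53) lower at 2 months. Fcna was thus below control at both times. Clec10a, a C-type lectin receptor, had 51.9 CPM in control, 6.07 CPM at 1 week and 31.2 CPM at 2 months, and was lower than control by more than 2-fold only at 1 week. Fcgrt, the neonatal Fc receptor, had 927 CPM in control, 531 CPM at 1 week and 411 CPM at 2 months, 2.26-fold (2.10 to 2.43) lower at 2 months. Fcrls, an Fc receptor-like gene, went the other way, at 35.5 CPM in control, 115 CPM at 1 week and 98.6 CPM at 2 months. Fcrls was above control at both times. F13a1, the coagulation factor XIII A chain, stood at 1430.0 CPM in control, 1609 CPM at 1 week and 1410.0 CPM at 2 months. Mrc1, the mannose receptor, stood at 846 CPM in control, 883 CPM at 1 week and 699 CPM at 2 months. Both were within 2-fold of control.

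The genes of the synovial lining barrier did not pass 2-fold in either comparison. Of 11 listed lining and junction genes, 6 were measured at 1 week and 9 at 2 months, and none was 2-fold higher or lower, with median log2 ratios of 0.03 and 0.17. Trem2, a lipid-sensing receptor, stood at 653 CPM in control, 1020.0 CPM at 1 week and 885 CPM at 2 months. The Trem2 levels of both operated libraries lay above control, by less than 2-fold. Sparc, a matricellular protein, stood at 419 CPM in control, 373 CPM at 1 week and 471 CPM at 2 months. F11r, the junctional adhesion molecule A, stood at 159 CPM in control, 100.2 CPM at 1 week and 162 CPM at 2 months.

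Over all genes, more were lower than higher at 1 week. With at least 100 UMIs in both sums together, 5609 genes were measured between 1-week and control residents. Of these 175 (3.12%) were at least 2-fold higher and 479 (8.54%) at least 2-fold lower at 1 week. Where a sum had fewer than 3 UMIs it was raised to 3 for the ratio. The 27 residents at 1 week gave few UMIs, so that ratios of low genes there have wide intervals. After thinning 70 of the 3072 genes then measured were higher, and with each gene's top cell left out 89 were higher and 905 lower.

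The genes highest at 1 week were led by genes of dividing cells and of lipid handling. Stmn1, the microtubule-destabilising stathmin, stood at 22.2 CPM in control, 543 CPM at 1 week and 27.7 CPM at 2 months, 24.5-fold higher (95% interval 19.1 to 31.6) at 1 week than in control, in 10 of 27 residents. Smc4, a condensin subunit, had 23.1 CPM in control, 191 CPM at 1 week and 33.9 CPM at 2 months. Cenpa, the centromeric histone H3 variant, had 16.8 CPM in control, 106 CPM at 1 week and 12.5 CPM at 2 months. For each of these the control and 2-month levels were within 2-fold of each other and the 1-week level stood above both. Tmpo, a nuclear lamina protein, had 23.7 CPM in control, 137 CPM at 1 week and 35.3 CPM at 2 months. The 1-week UMIs of these genes lay in few cells. The 5 residents with most UMIs of a gene held 96.65% for Stmn1, 95.2% for Smc4, 93.3% for Tmpo and 88.6% for Cenpa. Of 24 genes listed for proliferation, 7 were measured and 6 of them were at least 2-fold higher at 1 week, against 3.12% of all genes. Their median log2 ratio was 1.68, and at 2 months none of 7 passed 2-fold (median -0.01). Top2a, the topoisomerase of dividing cells, was too low in control to be among the 7, with 87 UMIs in 6 of 27 residents at 1 week, against 5 UMIs in 5 of 445 control residents. A UMI of Mki67 or Top2a was found in 114 of 445 residents in control, 11 of 27 at 1 week and 39 of 172 at 2 months. Without these cells 16 residents were left at 1 week, and the ratios of Smc4 and Tmpo over control were 0.926 and 0.708. The cells left out were picked by genes of dividing cells, so that lower ratios of such genes follow in part from the choice.

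Several lipid-handling genes were also higher at 1 week. Lpl, the lipoprotein lipase, stood at 20.6 CPM in control, 322 CPM at 1 week and 42.4 CPM at 2 months, 15.6-fold higher (95% interval 11.7 to 20.9) at 1 week, and was found in 16 of 27 residents. Fabp5, a fatty-acid-binding protein, stood at 14.4 CPM in control, 130.5 CPM at 1 week and 46.9 CPM at 2 months, 9.06-fold higher (95% interval 6.01 to 13.5) at 1 week. Apoe, the apolipoprotein E, stood at 2959 CPM in control, 11459 CPM at 1 week and 6481 CPM at 2 months, 3.87-fold higher (95% interval 3.73 to 4.02) at 1 week and 2.19-fold (2.14 to 2.24) higher at 2 months. For each of the 3 genes the 2-month level lay between the control and 1-week levels. Lgals3, the lectin galectin-3, had 499.8 CPM in control, 1317 CPM at 1 week and 878 CPM at 2 months. Ctsd, the lysosomal protease cathepsin D, had 1947 CPM in control, 4310.0 CPM at 1 week and 3275 CPM at 2 months, with a ratio at 1 week of 1.83 without the top cell of each library. Of 18 genes listed for lipid-associated macrophages, 15 were measured, and 6 were at least 2-fold higher and 1 lower at 1 week, with a median log2 ratio of 0.64. At 2 months 3 of 15 were higher and 2 lower, with a median of 0.45. The shares over all genes were 3.12% higher and 8.54% lower at 1 week, and 1.76% and 2.83% at 2 months. Fabp4, another fatty-acid-binding protein, was the lower one at 1 week and also lower at 2 months, at 101.7 CPM in control, 42.5 CPM at 1 week and 13.4 CPM at 2 months. Plin2, a lipid-droplet coat protein, was lower at 2 months, at 413 CPM in control, 449 CPM at 1 week and 198 CPM at 2 months. Among lysosomal genes 2 of 17 were at least 2-fold higher at 1 week, Ctsd and Lipa, the lysosomal acid lipase, at 145 CPM in control, 361 CPM at 1 week and 206 CPM at 2 months, and none of 19 passed 2-fold at 2 months (median log2 ratios 0.41 and 0.12).

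Other genes among the 12 highest at 1 week were Clec4d, Slc37a2, Ccl8, Lyz1, Yae1d1 and Akr1b8. Akr1b8, an aldo-keto reductase, stood at 17.7 CPM in control, 121 CPM at 1 week and 37.5 CPM at 2 months. Clec4d, a C-type lectin receptor, stood at 32.4 CPM in control, 225 CPM at 1 week and 87.5 CPM at 2 months, 6.94-fold higher (95% interval 5.17 to 9.24) at 1 week, in 19 of 27 residents. Slc37a2, a sugar-phosphate exchanger, stood at 22.8 CPM in control, 158 CPM at 1 week and 31.2 CPM at 2 months, 6.91-fold higher (95% interval 4.86 to 9.74) at 1 week, in 22 of 27. The chemokine gene Ccl8 stood at 139 CPM in control, 883 CPM at 1 week and 108 CPM at 2 months, 6.35-fold higher (95% interval 5.50 to 7.30) at 1 week, in 12 of 27. The 5 residents with most Ccl8 held 93.1% of its 1-week UMIs. Ccl8 was thus high at 1 week alone, whereas Clec4d was also above control at 2 months. Yae1d1 stood at 16.0 CPM in control, 115 CPM at 1 week and 39.7 CPM at 2 months. Yae1d1 and Lyz1 rested on 1 cell each, which held 81.6% of the 1-week UMIs of Yae1d1 and 77.5% of those of Lyz1. When the resident with most UMIs of a gene was left out in each library, 10 of the 12 were still at least 2-fold higher at 1 week, and the ratios were 1.39 for Yae1d1 and 1.77 for Lyz1.

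The genes lowest at 1 week included Retnla, heat-shock genes and Cd74. Retnla, the secreted resistin-like molecule alpha of alternatively activated macrophages, stood at 619.7 CPM in control, 9.11 CPM at 1 week and 350.3 CPM at 2 months, from 2796 UMIs in control, 3 at 1 week and 785 at 2 months. With 3 UMIs at 1 week its ratio over control was 0.0147 (counting interval 0.00303 to 0.0430). Retnla was thus at the floor of 3 UMIs at 1 week. In control it came from 131 of 445 residents, and in Vsig4-negative macrophages its levels were 2156 CPM in control, 18.4 CPM at 1 week and 866 CPM at 2 months. The class II gene Cd74 had 449 CPM in control, 30.4 CPM at 1 week and 265 CPM at 2 months, 14.8-fold lower (95% interval 8.02 to 30.9) at 1 week and 1.69-fold (1.54 to 1.86) lower at 2 months, and H2-Aa, H2-Ab1 and H2-Eb1 were also at least 2-fold lower at 1 week. Of 8 class II pathway genes measured, 4 were at least 2-fold lower at 1 week, against 8.54% of all genes. Their median log2 ratio was -1.48, and none passed 2-fold at 2 months, with a median of -0.35. At 5000 UMIs Cd74 was detected among residents in 26.1% in control, 3.70% at 1 week and 18.2% at 2 months, and among mesenchymal cells in 13.5% in control, 9.39% at 1 week and 4.37% at 2 months, so that the 1-week share was not above this background. H2-Ab1 was detected in 11.3% in control, 14.8% at 1 week and 17.6% at 2 months, so that its share at 1 week was not below that in control. The control UMIs of these genes lay in few cells, as 1 control resident held 37.9% of the Cd74 UMIs, 43.7% of those of H2-Aa, 38.8% of those of H2-Ab1 and 46.5% of those of H2-Eb1. Without the top cell of each library the ratios of 1 week over control were 0.0872 for Cd74, 0.192 for H2-Aa, 0.246 for H2-Ab1 and 0.184 for H2-Eb1. Vsig4-negative macrophages went the other way for Cd74 at 1 week, at 5871 CPM there against 3257 CPM in control.

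Heat-shock and immediate-early genes were high in control. Hspa1a, an inducible chaperone of the HSP70 family, stood at 2052 CPM in control, 109 CPM at 1 week and 279 CPM at 2 months, 18.8-fold lower (95% interval 13.6 to 26.8) at 1 week and 7.36-fold (6.79 to 7.99) lower at 2 months. Its near-identical copy Hspa1b had 658 CPM in control, 24.3 CPM at 1 week and 157 CPM at 2 months, and reads shared by these copies make their single levels uncertain. Of the list of dissociation stress genes, which holds early-response and heat-shock genes, 20 were measured. At 1 week 11 were at least 2-fold lower and none higher, with a median log2 ratio of -1.08. At 2 months 5 were lower and none higher, with a median of -0.36. The part of dissociation stress in these and other genes high in control was not tested. Among all genes 8.54% were lower at 1 week and 2.83% at 2 months. Ier3, an early-response gene, had 1753 CPM in control, 489 CPM at 1 week and 578 CPM at 2 months. Hbegf, the heparin-binding growth factor of the EGF family, had 137 CPM in control, 12.1 CPM at 1 week and 26.8 CPM at 2 months. Both were more than 2-fold below control at both times. Other cells showed the same order of libraries, as Hspa1a stood at 2370.0 CPM in control, 50.8 CPM at 1 week and 253 CPM at 2 months in Vsig4-negative macrophages and at 270.5 CPM in control, 57.0 CPM at 1 week and 105 CPM at 2 months in mesenchymal cells. The control library was the highest in all 3 kinds of cell. Hsp90aa1, a chaperone of the HSP90 family, stood at 835 CPM in control, 334 CPM at 1 week and 364 CPM at 2 months in residents. Dnajb1, a co-chaperone, stood at 156 CPM in control, 69.8 CPM at 1 week and 71.8 CPM at 2 months.

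The remaining genes among the 12 lowest at 1 week included genes of muscle-like and matrix cells. Myl9, a myosin light chain of smooth muscle, had 1066 UMIs in control, 1 at 1 week and 288 at 2 months. Tagln, an actin-binding protein of smooth muscle, had 1722 UMIs in control, 5 at 1 week and 634 at 2 months. In control the 5 residents with most UMIs of a gene held 55.2% for Myl9 and 59.7% for Tagln. The 2-month UMIs also lay in few cells, as 1 resident held 65.3% of those of Myl9 and 1 held 62.9% of those of Tagln. Igfbp5, an IGF-binding protein secreted by stromal cells, had 918 UMIs in control, 1 at 1 week and 119 at 2 months. Sparcl1, a matricellular protein, had 541 UMIs in control, 1 at 1 week and 117 at 2 months. Igfbp5 and Sparcl1 had 1 UMI each at 1 week. Ccn2, the connective tissue growth factor, had 119 CPM in control, 9.11 CPM at 1 week and 54.0 CPM at 2 months. Hspb1, a small heat-shock protein, had 227 CPM in control, 18.2 CPM at 1 week and 64.7 CPM at 2 months. Rbpms, an RNA-binding protein, had 107 CPM in control, 9.11 CPM at 1 week and 67.8 CPM at 2 months. The share held by the top 5 control residents was 56.6% for Ccn2, 39.0% for Sparcl1 and 35.6% for Igfbp5. For Hspb1 it was 29.5% and for Rbpms 10.6%. Igfbp5 had UMIs in 266 of 445 control residents and Rbpms in 237. The summed mural markers were also lowest at 1 week, as given above, and their part in these differences was not tested.

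**Figure D4:**
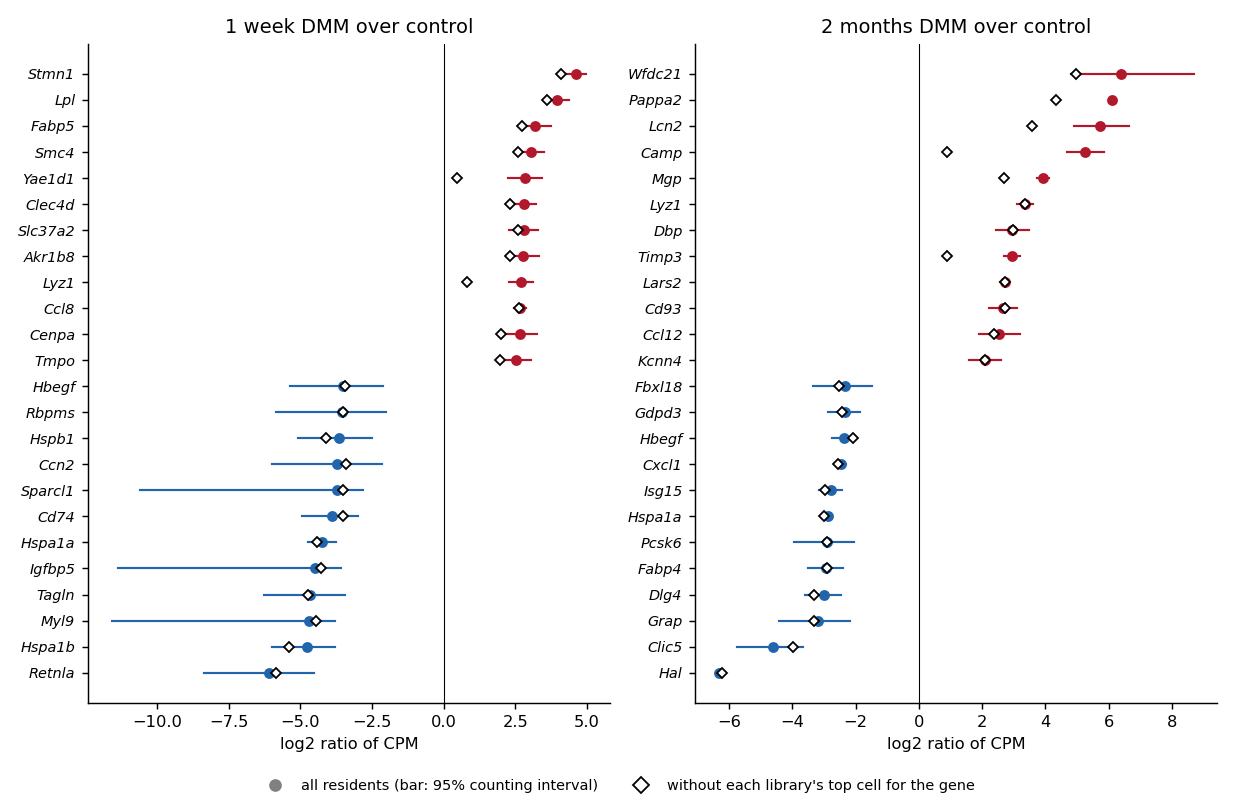
Log2 ratio of CPM over control for the 24 genes named for 1 week (left) and the 24 named for 2 months (right). Filled points with bars are all residents with the 95% counting interval (none for Pappa2, with 0 UMIs in control, and Hal, with 0 UMIs at 2 months), with sums under 3 UMIs raised to 3, and open diamonds leave out each library's resident with most UMIs of the gene. At 1 week 10 of the 12 highest genes stayed at least 2-fold higher without that cell.

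Several chemokine genes were lower after surgery in residents. Cxcl2, a neutrophil-attracting chemokine and among the most abundant chemokines of control residents, stood at 7143 CPM in control, 2225 CPM at 1 week and 1739 CPM at 2 months, 3.21-fold lower (95% interval 2.98 to 3.46) at 1 week and 4.11-fold (3.97 to 4.25) lower at 2 months. Ccl4, a chemokine for monocytes and T cells, stood at 798 CPM in control, 88.0 CPM at 1 week and 312 CPM at 2 months, 9.07-fold lower (95% interval 6.30 to 13.6) at 1 week and 2.56-fold (2.36 to 2.78) lower at 2 months. At 1 week 1 resident held 36.3% of the Cxcl2 UMIs, and 1 held 62.1% of those of Ccl4. Without the top cell of each library Cxcl2 was 4.94-fold lower than control at 1 week and 4.23-fold lower at 2 months, and Ccl4 was 22.7-fold lower at 1 week and 2.79-fold lower at 2 months. Ccl3, a relative of Ccl4, had 582 CPM in control, 234 CPM at 1 week and 173 CPM at 2 months. Cxcl1, a relative of Cxcl2, had 919 CPM in control, 449 CPM at 1 week and 168 CPM at 2 months, 5.46-fold lower (95% interval 4.92 to 6.09) at 2 months. Of the listed chemokines, 13 were measured at 1 week, of which 1 was at least 2-fold higher and 4 lower (median log2 ratio -0.55), and of 14 at 2 months 1 was higher and 5 lower (median -0.65). Ccl8 was the higher one at 1 week, and at 2 months it was Ccl12, another monocyte chemokine, at 6.21 CPM in control, 45.5 CPM at 1 week and 35.7 CPM at 2 months. In cells with a Y-linked UMI and no Xist the ratio of Ccl12 at 2 months over control was 0.817, below control. Among inflammatory cytokine genes, 1 of 10 was lower at 1 week and 2 of 9 at 2 months, with none higher (median log2 ratios -0.22 and -0.38). Beside these chemokine and cytokine counts, 3.12% of all genes were higher and 8.54% lower at 1 week. At 2 months the shares of all genes were 1.76% and 2.83%. Nfkbia, the inhibitor that NF-kB induces, had 3341 CPM in control, 1618 CPM at 1 week and 1521 CPM at 2 months, 2.06-fold lower (95% interval 1.89 to 2.26) at 1 week and 2.20-fold (2.12 to 2.28) lower at 2 months. Tnf, the tumour necrosis factor gene, had 678 CPM in control, 589 CPM at 1 week and 373 CPM at 2 months. Il1b, the interleukin-1 beta gene, had 49.9 CPM in control, 45.5 CPM at 1 week and 43.7 CPM at 2 months. With all residents counted, Tnf and Il1b were each within 2-fold of control in the operated libraries. For Il1b this rested on few cells, as 1 resident held 66.7% of its 15 UMIs at 1 week. Without the top cell of each library Il1b was 2.70-fold lower than control at 1 week and 1.875-fold lower at 2 months. Tnf was then 1.504-fold lower at 1 week and 1.973-fold lower at 2 months.

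Interferon-response genes lay on opposite sides of control in the operated libraries, a difference that was not tested. Of 13 measured at 1 week 6 were at least 2-fold higher and 1 lower, with a median log2 ratio of 0.89. Of 14 at 2 months none was higher and 2 were lower, with a median of -0.49. By comparison, 3.12% of all genes were higher and 8.54% lower at 1 week, and 1.76% and 2.83% at 2 months. Rsad2, the antiviral protein viperin, stood at 20.8 CPM in control, 106 CPM at 1 week and 12.5 CPM at 2 months, 5.10-fold higher (95% interval 3.36 to 7.59) at 1 week. Oasl2, a 2′-5′-oligoadenylate synthetase-like gene, had 18.2 CPM in control, 85.0 CPM at 1 week and 11.6 CPM at 2 months. Both were above control at 1 week and below it at 2 months. Ifi27l2a, the most abundant gene of the list, had 1764 CPM in control, 4074 CPM at 1 week and 1262 CPM at 2 months, 2.31-fold higher (95% interval 2.18 to 2.45) at 1 week. Without the top cell of each library the ratios at 1 week were 3.99 for Rsad2, 4.27 for Oasl2 and 2.00 for Ifi27l2a. For the list genes Irf7, Xaf1 and Rtp4 they were 2.21, 2.21 and 1.76. The 5 residents with most Rsad2 held 85.7% of its 1-week UMIs. Isg15, a ubiquitin-like modifier, went against the list at 1 week, at 203 CPM in control, 91.1 CPM at 1 week and 29.5 CPM at 2 months, 2.23-fold lower (95% interval 1.55 to 3.33) at 1 week and 6.90-fold (5.37 to 8.998) lower at 2 months. The list gene Cxcl10 had 53.85% of its 1-week UMIs in 1 cell. Without the top cell of each library it was 4.025-fold lower than control at 1 week. MHC class I genes, which interferon also induces, had median log2 ratios of 0.36 at 1 week and -0.21 at 2 months, with none past 2-fold.

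At 2 months a smaller share of genes passed 2-fold, with more UMIs behind each ratio than at 1 week. Of 6650 genes measured between 2-month and control residents, 117 (1.76%) were at least 2-fold higher and 188 (2.83%) at least 2-fold lower. After thinning 56 of the 3872 genes then measured were higher, and without residents holding at least 10 UMIs of other cell types 75 were higher. Among the 12 highest, the 6 genes Wfdc21, Pappa2, Lcn2, Camp, Mgp and Timp3 had more than 50% of their 2-month UMIs in 1 cell. Camp, the cathelicidin of neutrophil granules, had 28 UMIs in control, 2 at 1 week and 524 at 2 months, with 95.4% of those at 2 months in 1 resident. Lcn2, the neutrophil lipocalin, had 80.8% of its 2-month UMIs in 1 resident, and Wfdc21, a whey acidic protein family gene, 62.4%. Mgp, the matrix Gla protein, had 58.8% in 1 cell, and Timp3, an inhibitor of metalloproteinases, 77.8%. Pappa2, a protease that cuts IGF-binding proteins, had 0 UMIs in control, 0 at 1 week and 103 at 2 months. When the resident with most UMIs of a gene was left out in each library, 10 of the 12 were still at least 2-fold higher at 2 months, and the ratios over control were 1.86 for Camp and 1.86 for Timp3. Without residents holding at least 10 UMIs of other cell types, Mgp and Timp3 lay below control, at ratios of 0.679 for Mgp and 0.463 for Timp3. The neutrophil marker sum given above moved with Camp and Lcn2, and its part was not tested.

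Of the other 6 genes among the 12 highest at 2 months, 5 were found in at least 55 of 172 residents. Dbp, a transcription factor with a strong daily rhythm, stood at 8.64 CPM in control, 15.2 CPM at 1 week and 66.5 CPM at 2 months, 7.69-fold higher (95% interval 5.38 to 11.2) at 2 months, with UMIs in 34 residents in control, 5 at 1 week and 74 at 2 months. Lars2, the mitochondrial leucyl-tRNA synthetase, stood at 125 CPM in control, 158 CPM at 1 week and 824 CPM at 2 months, 6.57-fold higher (95% interval 5.98 to 7.23) at 2 months, in 171 of 172 residents, so that almost every resident carried it. Cd93, a receptor of the C-type lectin-like family, stood at 12.4 CPM in control, 100.2 CPM at 1 week and 77.7 CPM at 2 months, 6.26-fold higher (95% interval 4.61 to 8.61) at 2 months, in 78 of 172. Cd93 was above control at 1 week as well, whereas Lars2 was not by 2-fold. Kcnn4, a calcium-activated potassium channel, stood at 11.3 CPM in control, 51.6 CPM at 1 week and 47.8 CPM at 2 months, 4.22-fold higher (95% interval 2.999 to 6.02), in 55 of 172. Lyz1, a lysozyme gene, stood at 32.8 CPM in control, 216 CPM at 1 week and 336 CPM at 2 months, 10.2-fold higher (95% interval 8.58 to 12.3), in 56 of 172. The remaining one, the chemokine gene Ccl12, was found in 12 residents at 2 months, with 42.5% of its UMIs in 1 cell.

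Dbp and Lars2 differed in the same way in other cells of the 2-month library. Lars2 stood at 145 CPM in control, 133 CPM at 1 week and 729 CPM at 2 months in Vsig4-negative macrophages and at 177 CPM in control, 145 CPM at 1 week and 711 CPM at 2 months in mesenchymal cells. At 5000 UMIs Dbp was detected among residents in 3.27% in control, 18.5% at 1 week and 24.2% at 2 months, and among mesenchymal cells in 2.72% in control, 2.74% at 1 week and 21.4% at 2 months. Of the clock genes listed, 10 were measured at 2 months, with a median log2 ratio of 0.33. Of these 3 were at least 2-fold higher (Dbp, Tef and Bhlhe41) and 3 lower (Arntl, Cry1 and Ciart), against 1.76% and 2.83% of all genes. Arntl, which encodes the clock activator BMAL1, stood at 39.0 CPM in control, 66.8 CPM at 1 week and 18.3 CPM at 2 months. Tef, a relative of Dbp, stood at 15.5 CPM in control, 18.2 CPM at 1 week and 33.0 CPM at 2 months. Bhlhe41, a repressor of the clock also known in resident macrophages, stood at 22.2 CPM in control, 21.2 CPM at 1 week and 57.6 CPM at 2 months. The labels do not say at which hour the tissue was taken, and time of day and group cannot be told apart.

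Among the genes lowest at 2 months was Hal, the histidine ammonia-lyase. It had 483 UMIs in control, 62 at 1 week and 0 at 2 months, in 63 of 445 control residents and 9 of 27 at 1 week, and was detected in no resident at 2 months, at least 79.96-fold lower than control against a floor of 3 UMIs. In Vsig4-negative macrophages Hal stood at 207 CPM in control, 58.2 CPM at 1 week and 0.175 CPM at 2 months, so that it was near 0 at 2 months in both kinds of macrophage. Fabp4 was 7.60-fold lower (95% interval 5.25 to 11.4) than control at 2 months. Pcsk6, a proprotein convertase, had 37.0 CPM in control, 6.07 CPM at 1 week and 4.91 CPM at 2 months. Clic5, an intracellular chloride channel protein, had 97.3 CPM in control, 0 CPM at 1 week and 4.02 CPM at 2 months. Of the control UMIs of Clic5, 41.7% lay in 1 cell, and the fibroblast marker sum given above was also highest in control, whose part was not tested. Fabp4, Pcsk6 and Clic5 were each lower than control at both times after surgery. Grap, an adaptor protein, had 32.4 CPM in control, 15.2 CPM at 1 week and 3.57 CPM at 2 months. Dlg4, a scaffold protein best known from synapses, had 104 CPM in control, 24.3 CPM at 1 week and 12.9 CPM at 2 months. Gdpd3, a phosphodiesterase gene, had 88.7 CPM in control, 106 CPM at 1 week and 17.4 CPM at 2 months, and was low at 2 months alone. Fbxl18, an F-box gene, had 27.3 CPM in control, 9.11 CPM at 1 week and 5.36 CPM at 2 months. The other genes named as lowest were Hspa1a, Isg15, Cxcl1 and Hbegf, given above.

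Genes of engulfment, complement and eicosanoid synthesis, functions for which these macrophages are known, had medians near that of all genes at 1 week. Of 17 engulfment and scavenger genes measured at 1 week, 1 was at least 2-fold higher and 3 lower, and of 18 at 2 months none was higher and 2 were lower, with median log2 ratios of -0.02 and -0.01. Over all genes 3.12% were higher and 8.54% lower at 1 week, and 1.76% higher and 2.83% lower at 2 months. Cd36, a scavenger receptor for oxidised lipid, stood at 425 CPM in control, 862 CPM at 1 week and 713 CPM at 2 months, 2.03-fold higher (95% interval 1.78 to 2.30) at 1 week, and at a ratio of 1.82 without the top cell of each library. Axl, a receptor kinase for apoptotic cells, stood at 46.1 CPM in control, 15.2 CPM at 1 week and 21.4 CPM at 2 months, below control at both times. Mertk, the receptor kinase related to Axl, stood at 50.8 CPM in control, 33.4 CPM at 1 week and 69.2 CPM at 2 months. Gas6, which encodes a ligand of both kinases, stood at 735 CPM in control, 595 CPM at 1 week and 552 CPM at 2 months. For complement, 1 of 9 genes was at least 2-fold higher at 1 week and none of 10 passed 2-fold at 2 months, with median log2 ratios of -0.03 and 0.21. The higher one was C4b, complement component C4, at 103 CPM in control, 270.2 CPM at 1 week and 133 CPM at 2 months. Of 11 eicosanoid genes, the pathway in which Ltc4s acts, 1 was at least 2-fold higher at 1 week, Pla2g4a, the cytosolic phospholipase A2, at 27.7 CPM in control, 57.7 CPM at 1 week and 36.1 CPM at 2 months, and none passed 2-fold at 2 months (median log2 ratios 0.11 and 0.17). Alox5, the 5-lipoxygenase that acts before Ltc4s, stood at 131 CPM in control, 143 CPM at 1 week and 178 CPM at 2 months.

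Among iron, growth-factor and transcription-factor genes, members past 2-fold lay on both sides of control. Hmox1, the haem oxygenase, stood at 541 CPM in control, 1017 CPM at 1 week and 240.1 CPM at 2 months, 2.25-fold lower (95% interval 2.05 to 2.48) at 2 months; 55.8% of its 1-week UMIs lay in 1 cell. Slc48a1, a haem transporter, was the 1 of 11 measured iron genes at least 2-fold higher at 1 week, at 90.2 CPM in control, 219 CPM at 1 week and 119 CPM at 2 months (median log2 ratios 0.37 at 1 week and -0.16 at 2 months). Igf1, the insulin-like growth factor, stood at 123 CPM in control, 367 CPM at 1 week and 206 CPM at 2 months, 2.99-fold higher (95% interval 2.43 to 3.64) at 1 week and 1.67-fold (1.48 to 1.90) higher at 2 months. Of 17 transcription factor genes measured at 1 week 2 were at least 2-fold lower, Id3, an inhibitor of DNA-binding factors, at 558 CPM in control, 194 CPM at 1 week and 419 CPM at 2 months, and Cebpb, which encodes a factor of inflammatory and differentiation genes, at 1374 CPM in control, 686 CPM at 1 week and 652 CPM at 2 months. Over all genes 3.12% were higher and 8.54% lower at 1 week, and at 2 months 1.76% were higher and 2.83% lower. At 2 months Bhlhe41 was higher and Cebpb lower among 18, with median log2 ratios of -0.33 and 0.07. Maf, which encodes a transcription factor of macrophages, stood at 523 CPM in control, 735 CPM at 1 week and 861 CPM at 2 months. Spi1, which encodes PU.1, stood at 524 CPM in control, 401 CPM at 1 week and 386 CPM at 2 months. Both were within 2-fold of control.

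Among genes of recruited monocytes, Ccr2 was low in residents and others were not. Ccr2, the chemokine receptor of inflammatory monocytes, stood at 4.88 CPM in control, 9.11 CPM at 1 week and 50.4 CPM at 2 months, 10.3-fold higher (95% interval 6.51 to 17.2) at 2 months, with UMIs in 6 residents in control, 1 at 1 week and 15 at 2 months. In Vsig4-negative macrophages Ccr2 stood at 56.2 CPM in control, 324 CPM at 1 week and 234 CPM at 2 months, above the residents in each library. Of the monocyte-type genes, 5 were measured at 1 week and none passed 2-fold, and of 6 at 2 months only Ccr2 was at least 2-fold higher, with median log2 ratios of 0.26 and 0.67. The share of all genes higher at 2 months was 1.76%. S100a4, a calcium-binding protein, stood at 2575 CPM in control, 2726 CPM at 1 week and 3465 CPM at 2 months, and was found in 439 of 445 residents in control, 26 of 27 at 1 week and 169 of 172 at 2 months. Fn1, the fibronectin gene, stood at 610.0 CPM in control, 874 CPM at 1 week and 1141 CPM at 2 months.

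In the lists not yet described, at most 2 genes were called in 1 direction. Called shares over all genes were 3.12% higher and 8.54% lower at 1 week, and 1.76% and 2.83% at 2 months. Of 5 Fc receptor genes, none passed 2-fold at 1 week and Fcgrt was lower at 2 months, with median log2 ratios of -0.08 and -0.28. Of 14 growth factor and matrix genes measured at 1 week, Igf1 was at least 2-fold higher, and Hbegf and Pdgfa, a platelet-derived growth factor chain, were lower. Of 15 at 2 months none was higher, and Hbegf and Gdf15, a stress-induced cytokine at 488 CPM in control, 416 CPM at 1 week and 206 CPM at 2 months, were lower, with median log2 ratios of 0.11 and 0.07. Among 6 glucocorticoid-response genes Klf9, a transcription factor, was lower at 1 week, at 261 CPM in control, 103 CPM at 1 week and 230.3 CPM at 2 months, and none passed 2-fold at 2 months (median log2 ratios -0.85 and -0.02). Of 13 glycolysis and hypoxia genes, Pfkl, a phosphofructokinase, was lower at 1 week, and Eno1, an enolase, and Slc16a3, a lactate transporter, were higher at 2 months (median log2 ratios -0.05 and 0.19). Slc16a3 stood at 27.3 CPM in control, 18.2 CPM at 1 week and 57.6 CPM at 2 months.

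**Figure D5:**
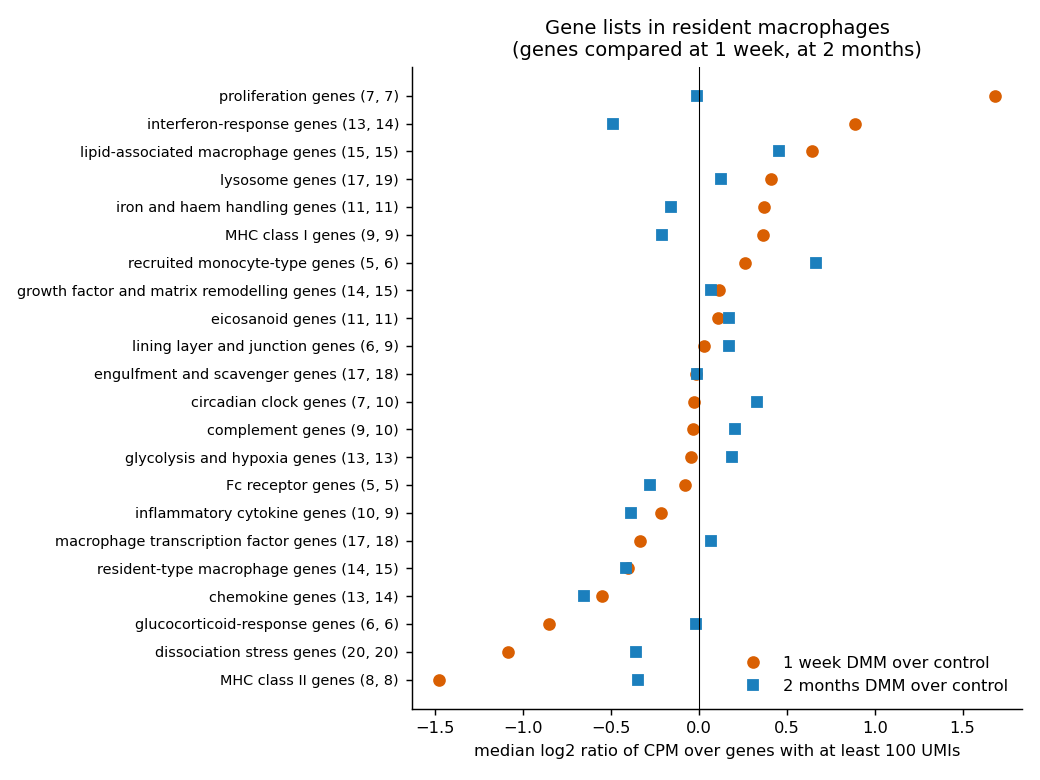
Median log2 ratio of CPM over control (horizontal axis) for each gene list in residents, with circles for 1 week and squares for 2 months. The interferon-response list lay at 0.89 at 1 week and -0.49 at 2 months, and the MHC class II list at -1.48 and -0.35, against medians over all genes of -0.05 and -0.01.

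The operated libraries were also compared with each other, where the median log2 ratio over all genes was 0.01. Of 3699 genes measured between 2-month and 1-week residents, 146 (3.95%) were at least 2-fold higher and 68 (1.84%) at least 2-fold lower at 2 months. After thinning 54 of the 1503 genes then measured were higher and 21 lower. The 6 genes named as highest at 2 months, Retnla, Timp3, Camp, Tagln, Lcn2 and Mgp, each had more than 50% of their 2-month UMIs in 1 cell. Retnla stood at 350.3 CPM at 2 months against 9.11 CPM at 1 week, and without the top cell 5 of the 6 were still at least 2-fold higher at 2 months. Without residents holding at least 10 UMIs of other cell types, 4 of the 6 lay below the 1-week level, at ratios of 0.688 for Camp, 0.424 for Timp3, 0.900 for Tagln and 0.847 for Lcn2. The 6 named as lowest were Stmn1, Ccl8, Lpl, Smc4, Hmgb2 and Mki67. Without residents holding a UMI of Mki67 or Top2a, Smc4 and Hmgb2 were higher at 2 months, at ratios over 1 week of 2.03 for Smc4 and 1.23 for Hmgb2. This follows in part from picking the cells by genes of cell division. Lpl stood at 42.4 CPM at 2 months against 322 CPM at 1 week, 7.59-fold lower (95% interval 5.70 to 10.1) at 2 months. Ccl8 stood at 108 CPM at 2 months against 883 CPM at 1 week, 8.14-fold lower (95% interval 6.85 to 9.70). Mki67, a marker of dividing cells, had UMIs in 111 residents in control, 10 at 1 week and 36 at 2 months. Top2a had UMIs in 5 residents in control, 6 at 1 week and 5 at 2 months, so that no cycling of control residents was read from Mki67 alone.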

How the data were processed

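For each of 32285 genes and each cell barcode, the deposited files gave raw UMI counts as whole numbers. Per the file headers, Cell Ranger 5.0.0 made the files of control and 1 week, and Cell Ranger 5.0.1 those of 2 months. The submitters' processing notes name Cell Ranger 6.0.1 and build mm10. There were 9003 barcodes in control, 13986 at 1 week and 10799 at 2 months, with 96782789, 179561680 and 159333121 UMIs.

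Counts were gated as described, summed over the residents of a library and scaled to 1000000 UMIs (Python 3.11.15, numpy 2.4.6, scipy 1.17.1, pandas 2.3.3, scanpy 1.11.5). With 1 library per group no test was run, and 2-fold differences are counts of genes past that size. Exact Poisson, Clopper-Pearson and conditional binomial 95% intervals cover counting error only. For shares of cells with a UMI, each cell was thinned to 5000 UMIs and shallower cells were left out. Doublets were not removed, as the sources used here do not say that the files were cleared of them. Scrublet marked 3.87% of passing cells in control, 4.12% at 1 week and 4.70% at 2 months (15, 0 and 6 residents), and its removal was an alternative. The ratios and intervals were tested on simulated data with known differences. Of genes left unchanged there, 2.67% passed 2-fold at 1 week over control and 0.0155% at 2 months over control. Between operated libraries 0.739% did. The intervals held the known value for 96.2%, 95.6% and 95.9% of genes, in that order of comparisons.

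The residents, gene lists and alternatives were chosen with earlier results of these data known. Named genes are the 12 highest and 12 lowest ratios against control, and the 6 between operated libraries, among genes with at least 100 UMIs in both sums and 20 CPM in 1 of them. Mitochondrial, ribosomal, haemoglobin, sex-linked, predicted and clone-named genes, the 9 genes of the selection and other-cell markers were left out. Against Vsig4-negative cells the 12 with the largest smallest ratio over libraries were taken. Of the list genes, all with a call or a high level could be named. Gene positions are from GENCODE vM21 and promoters from RefSeq.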

Additional observations from a re-analysis of the deposited data

Results flagged for a closer look

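These values stood out because they lay on opposite sides of control in the operated libraries, or came from a measure outside the comparisons. None of these differences was tested, since each group had 1 library. The interferon-response genes of residents had a median log2 ratio over control of 0.89 at 1 week and -0.49 at 2 months. The MHC class I genes had medians of 0.36 at 1 week and -0.21 at 2 months. Timp3, an inhibitor of metalloproteinases, had a ratio over control of 0.267 at 1 week, where its 1 UMI was raised to 3, and of 7.66 at 2 months, where most of its UMIs lay in 1 cell. Xist, the RNA of the inactive X chromosome, stood at 170.5 CPM in residents at 2 months, against 0.222 CPM in control and 0 UMIs at 1 week.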

How the results depend on the processing

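Across 12 alternative gates and filters (among them at least 1000 genes per barcode, at most 5% mitochondrial UMIs, 1 or 3 Vsig4 UMIs, Scrublet calls removed and cells thinned to 5000 UMIs), the resident share of gated macrophages over control ranged from 0.0243 to 0.0384 at 1 week and from 0.382 to 0.504 at 2 months. The share of passing cells ranged from 0.0281 to 0.0441 and from 0.226 to 0.346, and its 2-month value moved to 0.238 with at most 5% mitochondrial UMIs. Leaving out residents with at least 10 UMIs of other cell types, keeping only cells with a Y-linked UMI and no Xist, and leaving out each gene's top cell were chosen after seeing the data. Under the first the 2-month share of passing cells over control was 0.226, and under the second 0.246.

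Counts of genes past 2-fold moved more. After thinning they were 70 (higher) at 1 week over control, 56 (higher) at 2 months over control, and 54 (higher) and 21 (lower) at 2 months over 1 week, from fewer genes measured (3072, 3872 and 1503 in that order of comparisons). A minimum of 20 UMIs gave 923 higher genes at 1 week, 487 higher and 503 lower at 2 months, and 493 and 494 between operated libraries. A minimum of 500 UMIs gave 27 higher and 99 lower at 1 week, 29 and 77 at 2 months, and 29 and 12 between operated libraries, from fewer genes measured. Without other-cell UMIs there were 75 higher genes at 2 months over control and 34 lower over 1 week. Without residents holding a UMI of Mki67 or Top2a there were 44 lower over 1 week, and with Y-linked cells 67 higher over 1 week. Without each gene's top cell there were 89 higher and 905 lower genes at 1 week over control, and 286 higher and 37 lower at 2 months over 1 week; this removes a larger part of 27 cells than of 445 by its construction.

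Of 900 values of single named genes 15 crossed 1, and for these the cause was not tested. Camp at 2 months over 1 week was 0.979 (Scrublet), 0.431 (thinned), 0.632 (no Mki67 or Top2a UMI) and 0.688 (no other-cell UMIs). Without residents holding a UMI of Mki67 or Top2a, Smc4, Yae1d1 and Tmpo at 1 week over control were 0.926, 0.989 and 0.708. Smc4 and Hmgb2 at 2 months over 1 week were then 2.03 and 1.23. Without other-cell UMIs Mgp and Timp3 at 2 months over control were 0.679 and 0.463, and Timp3, Tagln and Lcn2 over 1 week were 0.424, 0.900 and 0.847. With Y-linked cells only, Ccl12 at 2 months over control was 0.817. Scaling by median ratios gave log2 factors relative to control of -0.03 at 1 week and -0.01 at 2 months. Division by these factors raises the log2 ratios over control by the same sizes.

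No paired analysis was possible because each group had 1 library. Leaving out cells with 2 or more UMIs of other cell types gave no value, since 640 of 644 residents had them. The 27 residents at 1 week limit every gene result there: a gene with 0 UMIs could stand at up to 9.11 CPM, against 0.665 CPM in control. Sex, mitochondrial share, age and hour of harvest could not be balanced between libraries of 1 pool each.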
